A study of Mus musculus with 2 samples.

Results

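The genes of cholesterol and fatty acid synthesis, of their control by SREBP, and of sterol export were followed in regulatory T cells (Tregs) with and without Hopx. The 36 genes were chosen by name from these pathways, with earlier results of these data known, and 35 of them, with 79 probe sets, were among the 18193 genes measured. Acat2, whose product joins acetyl-CoA units in the cytosol, has no difference here because no probe set carried its name. The 36 genes were split into 18 genes of sterol synthesis, 8 of fatty acid synthesis, 6 of SREBP control and 4 of sterol export. The export group holds the exporter genes Abca1 and Abcg1 beside Mylip and Npc1, which act on lipoprotein receptors and in lysosomes.

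The arrays carried RNA of Tregs induced in vivo through dendritic cells after immunization and sorted for CD25 and Foxp3. There was 1 array of Hopx-deficient cells, titled Hopx-/-, and 1 of Hopx-sufficient cells. Hopx is a small homeodomain protein that acts as a transcription cofactor without binding DNA itself. The strain, the age, the antigen, the number of mice and the kind of Hopx allele are not given in the sources used here.

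Every value below is a log2 difference, Hopx-deficient minus Hopx-sufficient, or the fold that corresponds to it, and a gene is the mean of its probe sets. The deposited values are centred on the mean of the arrays, so they hold differences and no levels, and whether a gene was expressed or a T cell marker present cannot be read from them. With 1 array per genotype there is no replicate error and no test, and each value describes these 2 arrays. The spread that can be given is that between probe sets of a gene, whose standard deviation (SD) was 0.18 over the 9010 genes with more than 1 probe set and 0.24 over the 24 such members. The Hopx transcript was lower in Hopx-deficient cells by 35.6-fold, as the labels require. Among 7 T cell identity genes Il2ra (CD25) and Cd4 differed by -0.06 and -0.01, and Foxp3, Cd5 and the CD3 chain genes Cd3d, Cd3e and Cd3g by 0.22 to 0.32. Hybridization spike-ins, 18 probe sets with no mouse sequence, ranged from -0.22 to 0.01.

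Cells make cholesterol from acetyl-CoA through mevalonate, farnesyl diphosphate, squalene and lanosterol, and fatty acids from acetyl-CoA through malonyl-CoA. SREBP transcription factors switch on the genes of both routes. They are carried by SCAP from the endoplasmic reticulum when sterols are scarce and are held back there by INSIG proteins when sterols are plentiful. An excess of sterols is sensed by the nuclear receptor LXR, which switches on exporters such as ABCA1 and ABCG1. T cells turn sterol and fatty acid synthesis up when they are activated and divide.

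Synthesis genes were mostly lower and all genes of the export group higher in Hopx-deficient cells. Of the 17 measured sterol synthesis genes 13 were lower, of the 8 fatty acid synthesis genes 7, and of the 6 SREBP control genes 5, whereas all 4 export genes were higher. Over all genes 49.9% were lower and 50.1% higher. The median difference was -0.26 for sterol synthesis, -0.18 for fatty acid synthesis, -0.16 for SREBP control and 0.25 for sterol export, against 0.00078 over all genes. At least 1.5-fold lower were 4 members, Idi1, Cyp51, Sqle and Fasn, compared with 1.31% of all genes. No member was at least 1.5-fold higher, compared with 0.297% of all genes. With a smaller threshold, a log2 difference of 0.32, 9 members were lower (6.93% of all genes) and 1 was higher (4.09% of all genes). At 2-fold 0 members were lower or higher, compared with 0.143% and 0.011% of all genes.

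**Figure D1:**
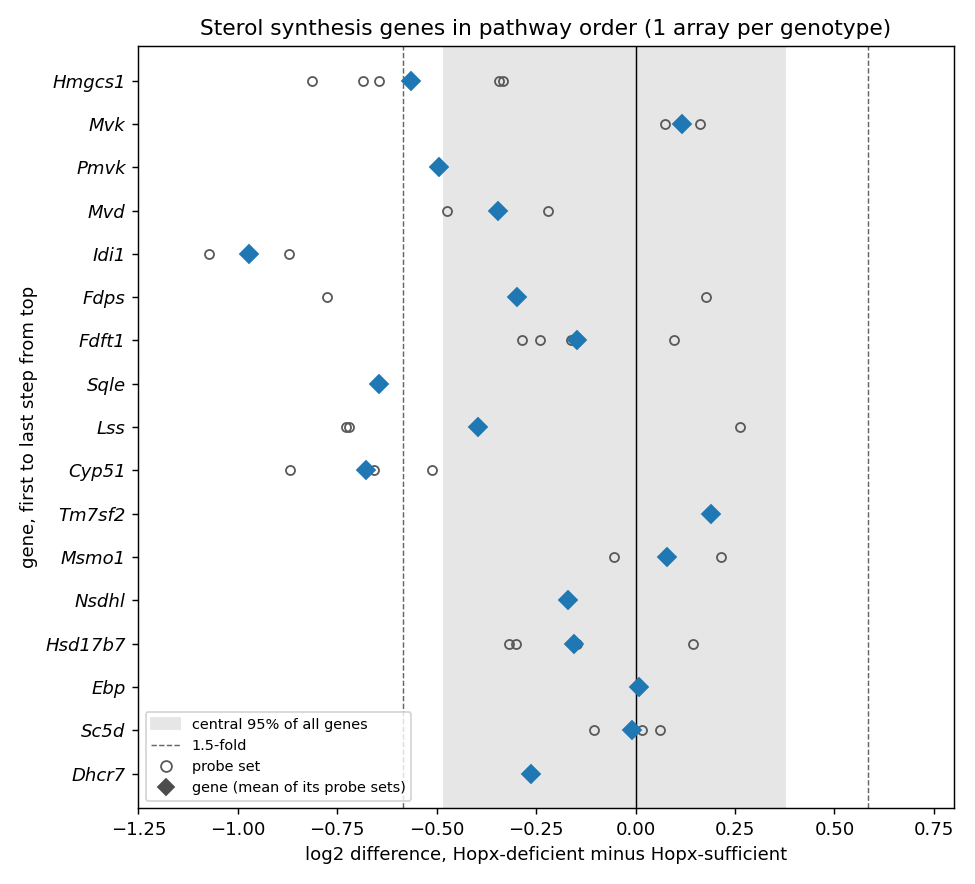
Log2 differences of the 17 measured sterol synthesis genes, from the first step at the top to the last at the bottom; circles are probe sets, diamonds gene means, the grey band the central 95% of all genes (-0.48 to 0.38) and the dashed lines 1.5-fold. Idi1 (-0.97), Cyp51 (-0.68) and Sqle (-0.65) lie beyond 1.5-fold, Hmgcs1 (-0.56) just short of it, and 4 genes lie right of 0.

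In the first stretch of sterol synthesis, up to farnesyl diphosphate, 5 of 6 measured genes were lower and the median was -0.42. Idi1 differed most of all members. It encodes the isomerase that turns isopentenyl diphosphate into its reactive partner. Its deposited values were -0.43 and -0.53 on the Hopx-deficient array and 0.43 and 0.53 on the Hopx-sufficient array, for 2 probe sets. Idi1 was thus 1.96-fold lower, at rank 32 of the 18193 genes counted from the lowest. Hmgcs1 encodes the cytosolic HMG-CoA synthase, which opens the committed route. It was 1.48-fold lower, and its 5 probe sets all lay on the lower side, between -0.81 and -0.33. Pmvk, the phosphomevalonate kinase gene, was 1.41-fold lower by its single probe set. Mvd, which encodes the decarboxylase of the next step, was 1.27-fold lower; its probe sets gave -0.47 and -0.22.

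The kinase before Pmvk went the other way. Mvk, which encodes mevalonate kinase, differed by 0.12, with both probe sets above 0 (0.07 and 0.16). The probe sets of Fdps, the gene of farnesyl diphosphate synthase, contradicted each other. One differed by -0.78 and the other by 0.18, which leaves a gene mean of -0.30 with an SD of 0.67. The second of these was among the 2065 probe sets whose values have the finest steps, a sign that the signal was low on at least 1 array. Without such probe sets Fdps stood at -0.78 and the median of the first stretch at -0.53. Leaving out instead the probe sets with names ending in _a_at, _s_at or _x_at (suffixed probe sets) gave a median of -0.37. They were kept where a gene had no other probe set. Hmgcs1 then stood at -0.44, Mvd at -0.22 and Idi1 at -1.07.

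From squalene on, 8 of 11 genes were lower and the median was -0.16. The lower values gathered at squalene epoxidation, closure of the rings and the first demethylation. Sqle, the squalene epoxidase gene, had a deposited value of -0.32 on the Hopx-deficient array and 0.32 on the Hopx-sufficient array. It was 1.56-fold lower by its only probe set. Cyp51, which encodes lanosterol demethylase, was 1.60-fold lower, and its 3 probe sets at -0.51, -0.66 and -0.87 all lay below 0.

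Lss encodes lanosterol synthase, which closes the sterol rings between these steps. It was 1.32-fold lower by its mean, but its probe sets split into -0.72 and -0.73 on one side and 0.26 on the other. By their median Lss differed by -0.72, which would place it past 1.5-fold. Without suffixed probe sets Lss differed by only -0.23. Fdft1, the squalene synthase gene at the branch point, differed by only -0.15, with 4 probe sets from -0.28 to 0.10.

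After lanosterol demethylation the differences were small and of both signs. Dhcr7, which encodes the reductase of the final step, was 1.20-fold lower. Nsdhl, a sterol dehydrogenase gene, differed by -0.17 and Hsd17b7, a sterol ketone reductase gene, by -0.16. The probe sets of Hsd17b7 ran from -0.32 to 0.15. Values near 0 were found for Sc5d, a sterol desaturase gene (-0.01), Ebp, a sterol isomerase gene (0.01), and Msmo1, the methylsterol monooxygenase gene (0.08). Tm7sf2, a sterol reductase gene, was the highest of the pathway at 0.19. The 3 largest differences of the pathway thus lay at isopentenyl isomerization, lanosterol demethylation and squalene epoxidation, and not in this last stretch.

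In fatty acid synthesis Fasn differed most. It encodes fatty acid synthase, which builds palmitate. Its single probe set had a deposited value of -0.30 on the Hopx-deficient array and 0.30 on the Hopx-sufficient array, a 1.53-fold lower value in Hopx-deficient cells. Acss2 came next by size and was the one gene of the 8 that was higher. It encodes the cytosolic enzyme that makes acetyl-CoA from acetate, and was 1.24-fold higher, the 3 probe sets giving 0.39, 0.38 and 0.15. A further probe set, annotated to both Acss2 and Gssos2 and therefore kept out of the gene value, differed by 0.29. Of the lower genes, the desaturase genes for polyunsaturated fatty acids followed Fasn, with Fads1 at -0.29 and Fads2 at -0.23. In each of them 1 probe set carried most of the difference: those of Fads1 gave -0.53 and -0.04, and those of Fads2 gave -0.54, -0.17 and 0.01.

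The remaining 4 genes lay closer to 0. Acaca, which encodes the acetyl-CoA carboxylase that supplies malonyl-CoA, differed by -0.22, but its probe sets disagreed in sign (-0.53 and 0.10). Scd1, a stearoyl-CoA desaturase gene, differed by -0.15 with both probe sets below 0, and its relative Scd2 by -0.0028. Acly, which splits citrate into acetyl-CoA, differed by -0.02, its 6 probe sets lying between -0.18 and 0.20. Because Scd2 and Acly lie so near 0, the number of lower genes was 5 of 8 with the most different probe set of each gene and 6 of 8 without centring. The group median, -0.18, was -0.36 with the most different probe set and -0.12 without suffixed probe sets.

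**Figure D2:**
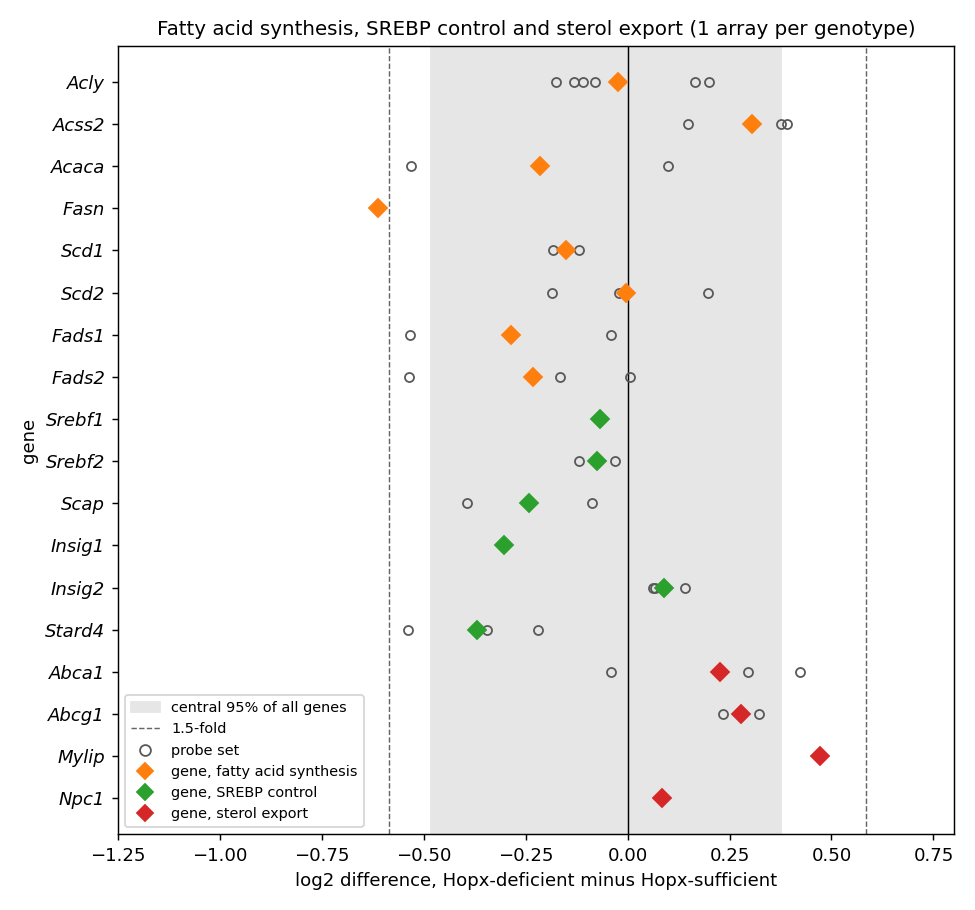
Log2 differences of the genes of fatty acid synthesis (orange), SREBP control (green) and sterol export (red), drawn as for sterol synthesis: circles are probe sets, diamonds gene means, the grey band the central 95% of all genes and the dashed lines 1.5-fold. Fasn at -0.61 is the one gene beyond 1.5-fold, and the 4 export genes lie between 0.08 and 0.47, to the right of 0.

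The transcription factor genes themselves differed little. Srebf2, whose product mainly drives sterol genes, differed by -0.08, and Srebf1, whose product mainly drives fatty acid genes, by -0.07. Both lay within the range of the spike-ins. Scap, the escort gene, differed by -0.24, with probe sets at -0.39 and -0.09. The INSIG genes parted: Insig1, itself a target of SREBP, was 1.23-fold lower by 1 probe set, while Insig2, which is regulated separately, differed by 0.09 with all 3 probe sets between 0.06 and 0.14. Stard4, a sterol carrier gene that SREBP induces, was the lowest of the 6 at 1.29-fold lower, and its 3 probe sets at -0.54, -0.35 and -0.22 all lay below 0. In all 4 genes of this group with more than 1 probe set the probe sets lay on one side of 0, compared with 47.6% of all such genes. The share was 45.5% in sterol synthesis and 42.9% in fatty acid synthesis.

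Genes of the export group were higher, with Mylip leading, although only Abca1 and Abcg1 among them encode exporters. Mylip encodes a ubiquitin ligase that LXR induces and that marks lipoprotein receptors for degradation. Its single probe set had a deposited value of 0.24 on the Hopx-deficient array and -0.24 on the Hopx-sufficient array. Mylip was 1.39-fold higher, at rank 158 of 18193 counted from the highest. The cholesterol exporter genes followed, Abcg1 at 1.21-fold with probe sets at 0.32 and 0.23, and Abca1 at 1.17-fold. Abca1 had probe sets at 0.42, 0.30 and -0.04, the last of which was also among those with the finest value steps. Npc1, which lets cholesterol out of lysosomes, differed by 0.08.

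ABCA1 and ABCG1 are abundant in macrophages, and macrophage markers moved the same way as these genes. Of 20 such markers 14 were higher and the median was 0.33, with Mrc1 at 0.89, Cd5l at 0.54 and Apoe at 0.48. Lyz2 was the lowest of them at -0.38. Of the 7 T cell identity genes 5 were higher too, with a median of 0.22. The part that macrophage RNA has in the export values was not tested. Of 9 adipocyte markers 7 were higher (median 0.08), of 12 B cell markers 10 were lower (median -0.09), and of 11 dendritic cell markers 7 were lower (median -0.05). Among these lists the genes furthest from 0 were Pparg (0.40), Lpl (0.27) and Cidec (0.26) for adipocytes, Fcmr (-0.48), Cd79a (-0.41) and Ebf1 (-0.40) for B cells, and Irf8 (-0.67), Ccl22 (-0.32) and Cd209a (0.31) for dendritic cells. Fewer or more cells of a type and less or more RNA per cell cannot be told apart in such bulk samples.

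Markers of cell division were mostly lower, as the synthesis genes were. Of 17 proliferation markers 16 were lower (median -0.29), with the replication helicase genes Mcm2, Mcm3 and Mcm5 at -0.61, -0.60 and -0.56. The exception was Ccnb2, a cyclin gene of mitosis, at 0.53. The smallest difference was that of Mki67, at -0.07. The part that dividing cells have in the lower synthesis values was not tested.

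The promoters of the 4 lowest members with a reference window and of the highest member are shown, to set genes that were lower together beside one that was higher. Each window runs from 250 bases before to 50 after the RefSeq start (GRCm38.p6), read 5′ to 3′ on the strand of the gene. Those of Hmgcs1 at chr13:119690101-119690400 (plus strand), Idi1 at chr13:8885356-8885655 (plus strand), Cyp51 at chr5:4104648-4104947 (minus strand) and Fasn at chr11:120824498-120824797 (minus strand) belong to lower genes, and that of Mylip at chr13:45389492-45389791 (plus strand) to the highest gene. Capitals mark the sterol regulatory element form TCACNCCAC and the letters CCAAT (bound by NF-Y) and GGGCGG (bound by Sp1), on either strand, and touching or overlapping matches run together.
Hmgcs1: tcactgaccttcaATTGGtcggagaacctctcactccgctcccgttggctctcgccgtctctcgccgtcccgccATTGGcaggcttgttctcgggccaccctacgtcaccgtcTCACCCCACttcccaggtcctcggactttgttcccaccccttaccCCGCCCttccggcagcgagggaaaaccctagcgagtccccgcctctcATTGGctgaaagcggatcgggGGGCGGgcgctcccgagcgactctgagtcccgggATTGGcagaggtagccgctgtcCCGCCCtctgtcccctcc
Idi1: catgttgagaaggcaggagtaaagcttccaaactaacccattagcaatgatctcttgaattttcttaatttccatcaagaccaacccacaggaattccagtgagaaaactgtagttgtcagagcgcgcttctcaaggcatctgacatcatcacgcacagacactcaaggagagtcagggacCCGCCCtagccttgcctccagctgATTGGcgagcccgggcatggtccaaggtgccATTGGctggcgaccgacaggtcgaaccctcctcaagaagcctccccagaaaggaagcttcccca
Cyp51: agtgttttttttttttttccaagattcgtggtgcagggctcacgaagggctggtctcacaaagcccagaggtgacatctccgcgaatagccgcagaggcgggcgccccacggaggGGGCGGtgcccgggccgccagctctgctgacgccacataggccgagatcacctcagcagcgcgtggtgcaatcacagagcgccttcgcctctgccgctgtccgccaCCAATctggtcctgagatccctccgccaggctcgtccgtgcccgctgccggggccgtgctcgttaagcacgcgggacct
Fasn: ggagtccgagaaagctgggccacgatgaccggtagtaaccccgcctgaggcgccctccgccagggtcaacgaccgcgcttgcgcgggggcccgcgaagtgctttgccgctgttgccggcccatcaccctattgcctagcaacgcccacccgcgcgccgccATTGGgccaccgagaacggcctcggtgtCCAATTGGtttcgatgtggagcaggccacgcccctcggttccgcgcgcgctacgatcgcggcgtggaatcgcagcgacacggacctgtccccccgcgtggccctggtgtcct
Mylip: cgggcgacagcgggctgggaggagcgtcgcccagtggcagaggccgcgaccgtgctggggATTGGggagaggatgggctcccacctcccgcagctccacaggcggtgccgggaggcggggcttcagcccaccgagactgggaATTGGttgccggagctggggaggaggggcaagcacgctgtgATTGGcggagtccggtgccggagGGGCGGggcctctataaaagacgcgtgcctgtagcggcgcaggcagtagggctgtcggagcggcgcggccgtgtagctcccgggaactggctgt

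The strict sterol element form TCACNCCAC was found in 1 of the 35 windows of 27 member genes (Acat2 included), that of Hmgcs1, starting 137 bases before the RefSeq start, and in 1.24% of all 32851 windows. In the sterol synthesis group Dhcr7 and Pmvk have several windows each, while Sqle, Fdps and Fdft1 have none. CCAAT stood in 14 of the 18 sterol synthesis windows, compared with 37.4% of all windows and 37.4% of the 18109 windows of genes on the array. GGGCGG stood in 15 of these 18, compared with 35.7% of all windows and 52.3% of those of array genes. Both letter groups also occur in the Mylip window, which belongs to a gene with the opposite direction. They occur as well in the windows of Mvk, Tm7sf2, Msmo1 and Ebp, the sterol synthesis genes that were not lower. The E-box form TCACGTGA was in none of the 35 member windows (0.974% of all), and the direct-repeat form of the LXR element was in none of them either (0.0152% of all). A match is a description of the letters, and looser forms of these elements were not searched.

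Neighbouring lipid pathways were set beside the members. The branches that lead from farnesyl diphosphate to protein prenylation, ubiquinone and dolichol were lower in 9 of 13 genes (median -0.22). Rabggtb, a subunit gene of the enzyme that prenylates Rab proteins, was 1.29-fold lower, Pdss2 of ubiquinone side chain synthesis 1.24-fold, and Dhdds of dolichol synthesis 1.22-fold. Genes of SREBP processing and sterol-regulated degradation went both ways, with 6 of 10 lower and a median of -0.04. Mbtps1, the protease gene that makes the first cut in SREBP, differed by 0.27, Rnf145, a ubiquitin ligase gene, by 0.26, and Erlin1, which takes part in protein degradation at the endoplasmic reticulum, by -0.36.

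Genes of lysosomal, ester and oxysterol handling were higher in 11 of 14 cases, though their median was only 0.03. Gramd1a, a sterol transfer gene, differed by 0.27, Ch25h, an oxysterol synthesis gene, by 0.19 and Npc2, the lysosomal partner of NPC1, by 0.18. Nr1h3, which encodes an LXR, differed by 0.02 with 1 probe set.

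Among genes that elongate and activate fatty acids 11 of 17 were lower (median -0.11). The acyl-CoA synthetase genes Acsl4 and Acsl3 differed most, by -0.41 and -0.33, but their probe sets spread from -1.03 to -0.02 and from -0.72 to 0.23. Mid1ip1, which activates acetyl-CoA carboxylase, differed by -0.24. Genes of glycerolipid synthesis were balanced, with 7 of 15 lower and a median of 0.03; furthest from 0 were Pcyt2 of phosphatidylethanolamine synthesis (-0.26), the phosphatidate phosphatase gene Lpin1 (0.26) and Cept1, which completes phospholipids (0.22). Fatty acid oxidation leaned the other way from synthesis, with 10 of 16 genes higher and a median of 0.11. Cpt1a, the gatekeeper of mitochondrial fatty acid entry, was 1.23-fold higher, all 3 of its probe sets falling between 0.27 and 0.31, and the dehydrogenase gene Acadm and the carrier gene Slc25a20 differed by 0.23 and 0.22. None of these 6 lists, with 85 measured genes, held a gene 1.5-fold apart, where 1.31% of all genes were that much lower and 0.297% higher.

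**Figure D3:**
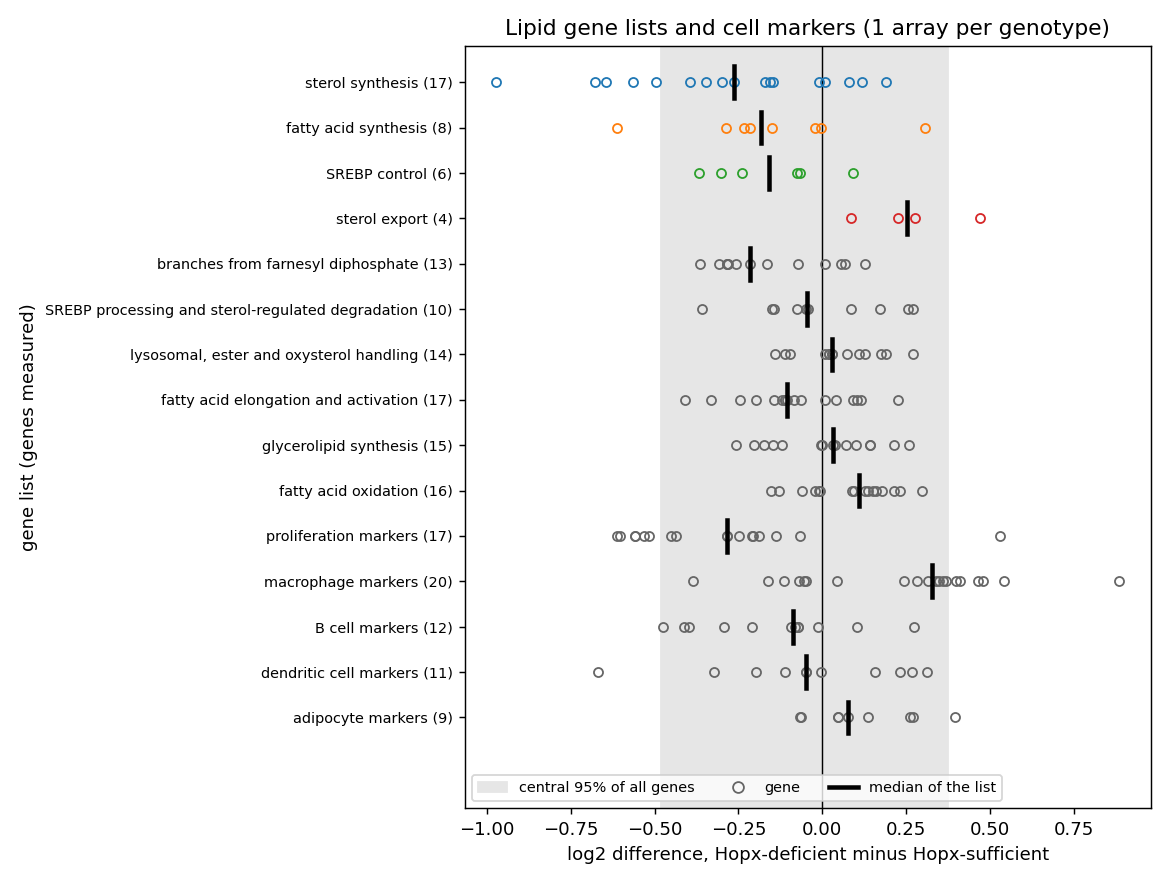
Log2 differences of single genes (circles) and list medians (bars) for the 4 member groups, 6 neighbouring lipid lists and 5 lists of proliferation and cell type markers, with the number of measured genes in parentheses; the grey band is the central 95% of all genes. The medians of sterol synthesis (-0.26) and proliferation markers (-0.29) lie left of 0, and those of sterol export (0.25) and macrophage markers (0.33) right of it.

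The spike-ins, which carry hybridization noise and no difference between cells, had a median of -0.12. Below the lowest spike-in probe set lay 9 of the 17 sterol synthesis genes and 15 of all 35 members, compared with 13.0% of all genes. The median of sterol synthesis (-0.26) also lay below the spike-in range of -0.22 to 0.01. Those of fatty acid synthesis (-0.18) and SREBP control (-0.16) lay within it. Above the highest spike-in lay all 4 export genes, compared with 48.4% of all genes. The range is that of 18 single probe sets and is not centred on 0, so it sets no noise limit for gene means or group medians. Outside the central 95% of all genes, 6 members lay on the lower side and 1, Mylip, on the higher side. In 13 of the 24 members with more than 1 probe set (54.2%) the probe sets lay on one side of 0, compared with 47.6% of all such genes. By group these were 5 of 11 in sterol synthesis, 3 of 7 in fatty acid synthesis, 4 of 4 in SREBP control and 1 of 2 in sterol export. Counted by single probe sets, 27 of 38 for sterol synthesis, 14 of 22 for fatty acid synthesis and 9 of 12 for SREBP control were lower, and 6 of 7 for sterol export were higher.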

How the data were processed

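Total RNA, labelled with biotin per the labels, was hybridised to single-colour 3' expression arrays with 45101 probe sets. The authors deposited log2-type values from which each probe set's mean over the 2 arrays had been subtracted: each row sums to 0 within 1e-06, and the column medians were 0.0076 for Hopx-deficient and -0.0076 for Hopx-sufficient cells. The log base, summarisation and normalization are not given in the sources used here; base 2 was assumed. Direction follows the column labels.

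Gene names came from the 2016 platform annotation, with symbols updated by gene ID (34741 of 34945 probe sets with 1 symbol matched the GRCm38.p6 gene table). A further 932 with several symbols, 9160 with none and 64 controls were left out of gene values. Differences were centred on their median over the 34945 probe sets (0.0075) and averaged per gene, which gave 18193 genes. A gene was called by fold alone, at 1.5-fold. The number of arrays limits the precision, and no test was made. Promoter windows are from RefSeq.

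The members and lists were chosen with earlier results of these data known; the proliferation and T cell lists were added after the files were read. Named were every member, the 3 genes furthest from 0 in each list, and Hopx. Lyz2, Ccnb2, Mki67, Nr1h3, Il2ra, Cd4, Cd3d and Cd3e were chosen after their values were seen. Alternatives were no centring, the median of a gene's probe sets, its most different one, natural logs, and thresholds of 0.32 (log2) and 2-fold. Others left out probe sets with the finest value steps, or suffixed probe sets (_a_at, _s_at or _x_at) of genes that also had unsuffixed ones. Python 3.11.15, numpy 2.4.6, pandas 2.3.3 and matplotlib 3.10.9 were used.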

Additional observations from a re-analysis of the deposited data

How the results depend on the processing

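No paired analysis was possible because there was a single array for either genotype; for the same reason none could be omitted. The 4 group medians kept their sign under every alternative run. With the most different probe set of each gene they were -0.32 for sterol synthesis, -0.36 for fatty acid synthesis and 0.37 for sterol export, and 7 members (against 4) were at least 1.5-fold lower, as were 451 of all genes (against 238). With natural logs, which enlarge every difference by a factor of 1.44, they were -0.38, -0.26 and 0.36, and 1 member, Mylip, was at least 1.5-fold higher; over all genes 739 were then at least 1.5-fold lower and 323 higher. Without suffixed probe sets the fatty acid synthesis median was -0.12 (the cause was not tested). The sterol synthesis median was then -0.22, and the median up to farnesyl diphosphate -0.37. At a log2 threshold of 0.32, 9 members were lower and 1 higher, compared with 6.93% and 4.09% of all genes. At 2-fold 0 members were lower, compared with 0.143% of all genes. Of the 35 members, 2 changed sign with the most different probe set, 1 with the median over probe sets, 1 without centring and 0 under the other 3 settings; the genes concerned, Scd2, Acly and Sc5d, had differences of -0.0028, -0.02 and -0.01. Signal levels were not part of the deposited values, so low signal could be judged only from the finest value steps. Without such probe sets Fdps stood at -0.78 and the median up to farnesyl diphosphate at -0.53. At least 1.5-fold lower were then 5 members (against 4) and 248 of all genes (against 238).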
